A study of Mus musculus with 26 samples.

Results

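A list of 55 genes of DNA replication and mitosis was followed across 6 groups of cultured mouse femoral osteoblasts, the cells that build bone matrix. The members were a fixed list of symbols, from Mcm2 and Pcna to Mki67 and Top2a, and all 55 were found among the 26264 symbols of the count table. All 55 also passed the filter on low counts and so were among the 16566 genes tested. By role they formed 9 classes: replication licensing and origin firing (11 genes), DNA synthesis and nucleotide supply (6), transcription factors (5), cyclins with Cdk1 and its phosphatase (7), mitotic kinases, checkpoint and chromosomal passenger genes (9), partners of the anaphase-promoting complex (2), centromere and kinetochore genes (3), spindle and cytokinesis genes (10), and chromosome structure in mitosis (2).

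The 6 groups had 3 RNA libraries each. YOUNG and OLD were osteoblasts of C57BL/6J mice aged 3 and 18 months. CKO-YOUNG and CKO-OLD came from mice with a floxed Kdm2b (Kdm2bfl/fl), Ocncre and the Ai14 reporter, in which the CxxC domain of Kdm2b is lost, and CON-YOUNG from mice with Ocncre and Ai14 alone. CON-OLD-iBP is named in the labels as an old control with iBP, with no word on what it is, its dose or its duration. No old Ocncre Ai14 library without iBP was analysed here, so the OLD mice, which lack both alleles, stood in for that control. Kdm2b is the subunit that brings the Polycomb complex PRC1.1 to unmethylated CpG islands through its CxxC domain. Ocncre is driven by the osteocalcin promoter, which acts late in the osteoblast lineage, so cells in which that promoter has not been active keep Kdm2b intact. All cells were grown in medium with serum before RNA was taken. No label says that the replicates were separate animals or cultures, and p-values therefore describe the spread between these libraries, which may be technical.

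Genes of this kind work in successive waves. E2F factors switch on the S phase genes that load and fire replication origins and supply nucleotides, and the MuvB complex with B-Myb (Mybl2) and Foxm1 then switches on the G2 and mitosis genes that build the spindle and part the chromosomes. In resting cells the DREAM complex, which also holds MuvB, keeps both waves low. Osteoblast precursors divide, and mature osteoblasts and osteocytes have largely left the cell cycle. In bulk RNA, fewer dividing cells and less of these RNAs per cell cannot be told apart.

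The promoters of the genes were searched for sequence marks of these waves, and 6 are shown. Of the 55 genes, 46 matched an entry of the RefSeq promoter table (GRCm38.p6), of which 250 bases before each start were searched on both strands for the letters TTTGAA (the CHR, bound by MuvB), CCAAT (bound by NF-Y) and TTTCCCGC, TTTGGCGC or TTTCGCGC (E2F sites). A pair of E2F matches on opposite strands may overlap, as in Mcm6. Top2a, Cdk1 and Mcm6 are printed because they hold several of these marks, and Rrm2, Pcna and E2f2 because their levels followed the other members least. This choice was made after their values were seen. Each line gives the 150 bases before the start, 5′ to 3′ on the gene's strand, with matches in capitals.
Top2a: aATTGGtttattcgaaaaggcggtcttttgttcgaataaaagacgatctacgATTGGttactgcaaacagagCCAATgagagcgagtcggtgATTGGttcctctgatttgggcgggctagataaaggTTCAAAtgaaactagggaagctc
Cdk1: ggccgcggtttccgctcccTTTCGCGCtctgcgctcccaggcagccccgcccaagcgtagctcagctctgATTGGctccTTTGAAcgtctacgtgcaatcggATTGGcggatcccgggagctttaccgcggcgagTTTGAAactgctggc
Mcm6: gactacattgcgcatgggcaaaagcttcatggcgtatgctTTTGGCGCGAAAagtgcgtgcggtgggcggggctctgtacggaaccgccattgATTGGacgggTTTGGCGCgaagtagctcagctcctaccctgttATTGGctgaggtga
Rrm2: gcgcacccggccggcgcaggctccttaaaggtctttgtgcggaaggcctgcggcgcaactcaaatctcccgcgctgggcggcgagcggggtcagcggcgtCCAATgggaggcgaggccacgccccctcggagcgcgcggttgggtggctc
Pcna: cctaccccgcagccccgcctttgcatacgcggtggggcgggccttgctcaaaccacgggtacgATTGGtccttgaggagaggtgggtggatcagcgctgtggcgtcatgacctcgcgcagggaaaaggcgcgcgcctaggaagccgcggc
E2f2: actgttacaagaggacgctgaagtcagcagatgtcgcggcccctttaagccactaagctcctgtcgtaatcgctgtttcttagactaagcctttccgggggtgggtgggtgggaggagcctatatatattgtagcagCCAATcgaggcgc
These stretches lie at chr11:99024190-99024339 (minus strand, Top2a), chr10:69352913-69353062 (minus strand, Cdk1), chr1:128359706-128359855 (minus strand, Mcm6), chr12:24708104-24708253 (plus strand, Rrm2), chr2:132253181-132253330 (minus strand, Pcna) and chr4:136172124-136172273 (plus strand, E2f2) in GRCm38.p6, a different build from the mm39 of the counts. E2f2 has 2 starts in the table, and the one printed is the first by position on the chromosome. Its other start, not printed, holds 1 TTTGAA and 3 CCAAT matches. A gene was counted where any of its starts held a match. TTTGAA was found in 14 of the 46 genes (30.4%), E2f2 among them by its second start. That compares with 13.6% of the 12918 tested genes with an entry and 18.3% of all 27025 genes of the table. CCAAT was found in 34 (73.9%), against 39.9% and 37.5%. An E2F match was found in 6 (13%), against 3.04% and 1.78%, and 4 of the 6 were licensing genes. The median number of CpG pairs in 250 bases was 19 in the members, 16 in the tested genes and 6 in the whole table. These counts describe letters in a window and carry no test.

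Levels are given as CPM, counts scaled to 1e+06 per library after TMM normalization. Library totals ran from 46272076 to 77698781 counts, so that 1 count is worth 0.0127 to 0.0203 CPM. The libraries fell into 3 sets that cut across the groups and are not named in the labels. Set 3 held 10 libraries with Malat1, a nuclear RNA, above 0.05% of counts (0.0957% to 0.223%): the 3 CON-OLD-iBP libraries, the 3 CKO-OLD libraries and, 1 from each remaining group, CKO-YOUNG 3, CON-YOUNG 3, OLD 2 and YOUNG 3. The other 8 were at 0.0435% or less and were parted by label into set 1 (YOUNG 1 and 2, OLD 1 and 3) and set 2 (CON-YOUNG 1 and 2, CKO-YOUNG 1 and 2). Xist was at 391 to 481 CPM in set 1, at 372 CPM in CKO-YOUNG 3, which also held Ddx3y at 21.3 CPM, and at 0.404 CPM or less elsewhere. The 18 macrophage markers took 0.0145% to 0.0206% of counts in set 2, between 0.0483% and 0.634% in set 3, and between 1.02% and 1.60% in set 1. Osteoblast markers made up 1.70% to 6.27% of counts, but Bglap, the osteocalcin gene, was at 0 to 0.152 CPM in set 2, 0.306 CPM in CKO-YOUNG 3, 9.89 CPM in CON-YOUNG 3 and 25.2 to 83.6 CPM in the other 12 libraries. Markers of erythroid, B and T cells were at or below 0.000169% of counts, with the T cell gene Cd3e and the globin gene Hba-a1 at 0 in all 18 libraries. Kdm2b counts, which include exons outside the deleted domain and so do not check the deletion, were at 16.2 to 24.0 CPM in the CON-OLD-iBP libraries, 27.6 to 58.2 in the CKO-YOUNG libraries, 22.6 to 37.5 in the YOUNG libraries, 23.4 to 57.2 in the CKO-OLD libraries, 19.9 to 52.9 in the CON-YOUNG libraries and 19.3 to 34.3 in the OLD libraries.

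The 55 genes were highest in set 2 and lowest in CON-OLD-iBP, YOUNG 3 and CKO-YOUNG 3. Their mean log2 CPM per library was 5.13, 5.15 and 3.77 in YOUNG 1, 2 and 3, and 5.01, 4.58 and 5.02 in OLD. It was 5.76, 5.78 and 4.82 in CON-YOUNG and 5.71, 5.78 and 3.67 in CKO-YOUNG. It was 4.42, 4.72 and 4.52 in CKO-OLD and 3.29, 3.87 and 3.14 in CON-OLD-iBP. The library of set 3 was the lowest of its group in each of the 4 groups that span sets. The spread within a group was wide in YOUNG, CON-YOUNG and CKO-YOUNG (SD 0.79, 0.55 and 1.20, n = 3) and narrow in OLD, CKO-OLD and CON-OLD-iBP (SD 0.25, 0.15 and 0.38, n = 3). Set 2 stood above all 14 other libraries for 45 of the 55 genes. As a share of all counts the 55 genes took 0.0906% to 0.400%.

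**Figure D1:**
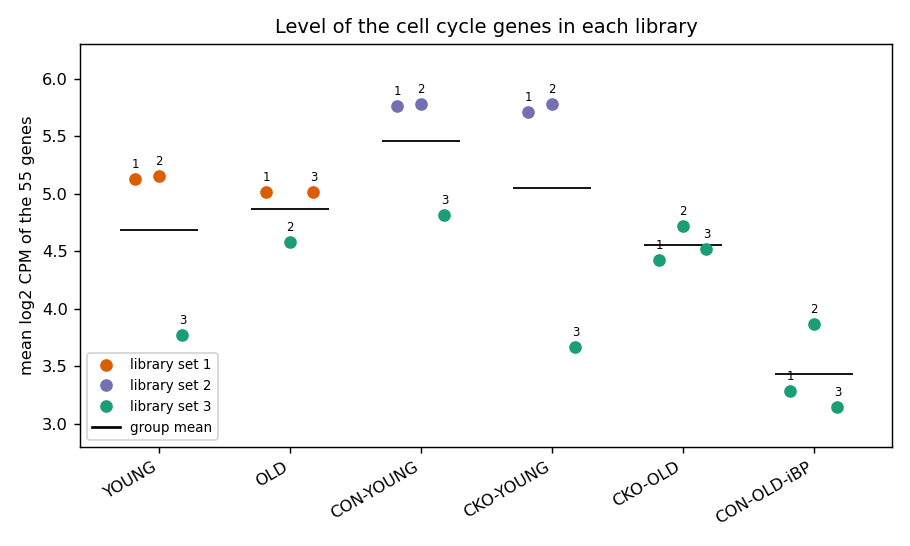
Mean log2 CPM of the 55 cell cycle genes (vertical axis) in each of the 18 libraries, arranged by group; each point is a library, numbered by replicate and coloured by library set, and the black line is the group mean. The 4 libraries of set 2 lie between 5.71 and 5.78, and the 3 CON-OLD-iBP libraries between 3.14 and 3.87.

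The members moved together from library to library. The correlation of each gene's log2 CPM with the mean of the other 54 over the 18 libraries, which share their library sets, was highest for Top2a (0.996), Mcm3 (0.993) and Mcm5 (0.989). It was lowest for Rrm2 (0.06), E2f2 (0.41), Pcna (0.55) and E2f8 (0.72), all of them S phase genes or E2F factors. CON-OLD-iBP 3 was the lowest library for 27 genes, CON-OLD-iBP 1 for 18, CKO-YOUNG 3 for 8, and CON-OLD-iBP 2 and YOUNG 3 for 1 each. Of the 55 genes, 49 had their highest library in set 2.

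**Figure D2:**
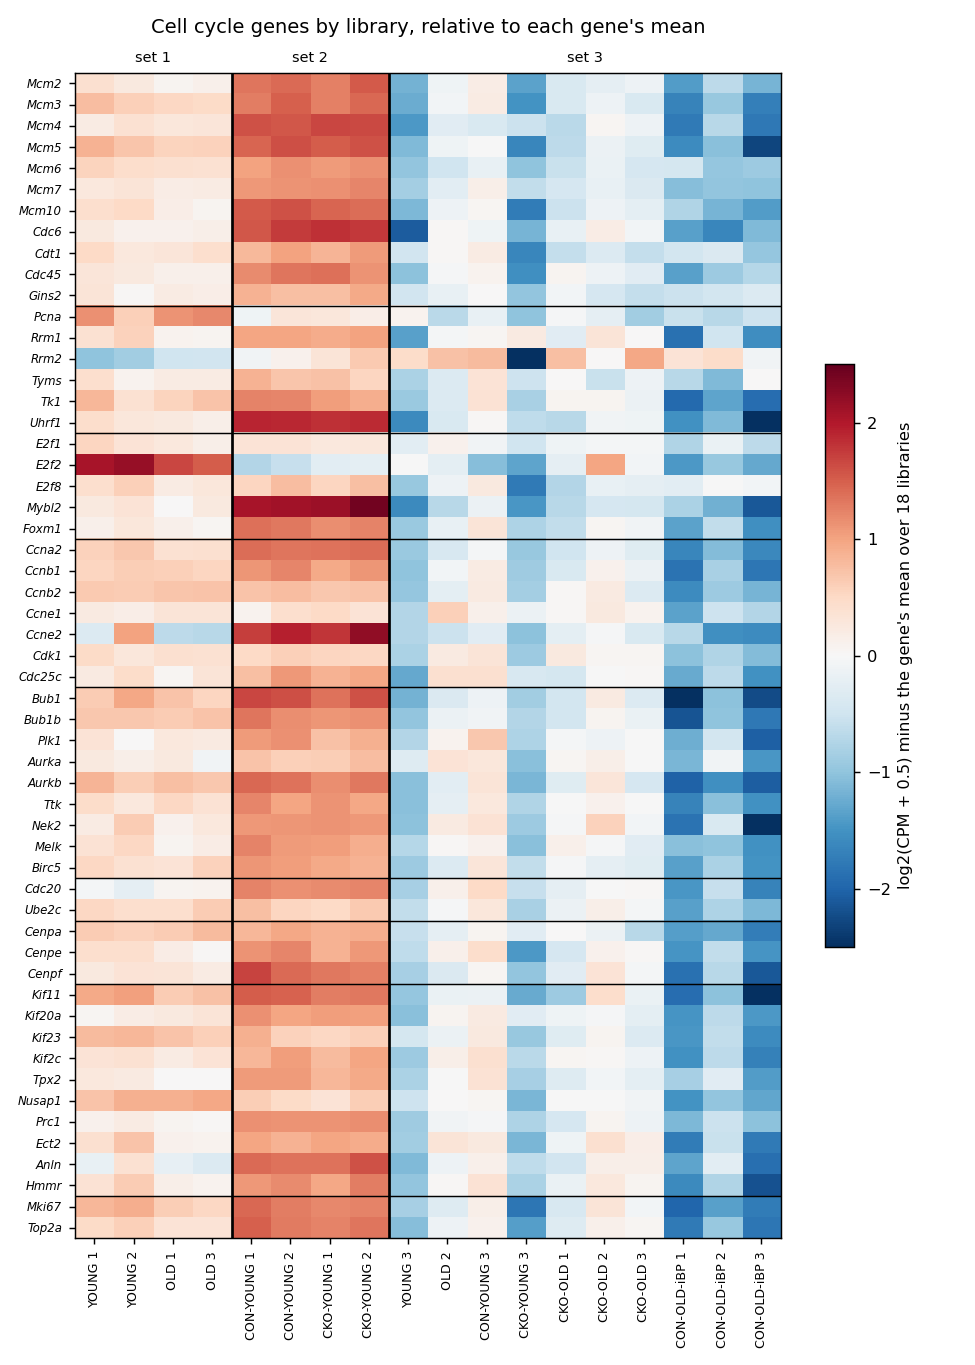
Log2(CPM + 0.5) of each of the 55 genes less its own mean over 18 libraries (colour; red is higher, blue lower), with genes in rows by role class, parted by thin lines, and libraries in columns by set, parted by thick lines. Nearly all rows are red in set 2 and blue in YOUNG 3, CKO-YOUNG 3 and the CON-OLD-iBP libraries; Rrm2 and E2f2 differ.

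The licensing genes load the MCM helicase on origins (Cdc6, Cdt1, Mcm2 to Mcm7) and start it (Mcm10, Cdc45, Gins2). Mcm6, a helicase subunit, was measured at 136, 126 and 46.3 CPM in YOUNG, 122, 65.1 and 121 in OLD, 186, 205 and 81.7 in CON-YOUNG, 194, 204 and 46.1 in CKO-YOUNG, 63.0, 81.9 and 69.0 in CKO-OLD and 67.9, 47.2 and 49.2 in CON-OLD-iBP. Mcm3, another subunit of the same ring, stood at 88.8, 78.4 and 21.4 CPM in YOUNG, 74.6, 49.0 and 72.3 in OLD, 125, 145 and 59.3 in CON-YOUNG, 124, 141 and 17.9 in CKO-YOUNG, 39.5, 47.4 and 39.4 in CKO-OLD and 15.9, 26.5 and 15.4 in CON-OLD-iBP. Both were above 124 CPM in the 4 libraries of set 2 and at most 81.7 CPM in CON-YOUNG 3 and CKO-YOUNG 3. For Mcm6 the CON-OLD-iBP libraries overlapped those of CKO-OLD and OLD 2 was 65.1 CPM, below CON-OLD-iBP 1. For Mcm3 all 3 CON-OLD-iBP libraries were below every OLD and CKO-OLD library.

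Among the genes of DNA synthesis, Rrm1 and Rrm2 code for the large and small subunits of ribonucleotide reductase, which makes deoxynucleotides. Rrm1 had 154, 177 and 45.8 CPM in YOUNG, 126, 115 and 124 in OLD, 235, 236 and 123 in CON-YOUNG, 226, 238 and 139.6 in CKO-YOUNG, 97.4, 148 and 119 in CKO-OLD and 32.4, 83.5 and 40.0 in CON-OLD-iBP. Rrm2 had 93.6, 103 and 261 CPM in YOUNG, 133, 314 and 136 in OLD, 177, 203 and 324 in CON-YOUNG, 236, 297 and 31.2 in CKO-YOUNG, 319, 189 and 369.9 in CKO-OLD and 239, 261 and 177 in CON-OLD-iBP. Rrm1 was highest in set 2 and lowest in CON-OLD-iBP and YOUNG 3, as most members were, although CKO-YOUNG 3 was not low. Rrm2 was at 93.6 to 136 CPM in set 1 and at 177 to 369.9 CPM in 9 of the 10 libraries of set 3, with CKO-YOUNG 3 far below. Pcna, the sliding clamp of the DNA polymerases, was at 212, 146 and 103 CPM in YOUNG, 209.5, 60.0 and 221 in OLD, 88.8, 118 and 84.1 in CON-YOUNG, 117, 107 and 47.5 in CKO-YOUNG, 93.7, 81.6 and 52.6 in CKO-OLD and 65.1, 59.4 and 66.9 in CON-OLD-iBP. The 4 libraries of set 1 were above all 14 others. Uhrf1, which keeps DNA methylation through replication, ranged from 6.61 CPM in CON-OLD-iBP 3 to 154.5 CPM in CON-YOUNG 1, and Tk1, a thymidine kinase, from 6.63 to 63.7 CPM.

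The transcription factors included activators of both waves. E2f1, an activator of S phase genes, varied 2.46-fold, with 56.3, 49.4 and 32.1 CPM in YOUNG, 46.8, 41.7 and 42.8 in OLD, 49.5, 49.2 and 36.5 in CON-YOUNG, 46.6, 47.1 and 27.3 in CKO-YOUNG, 35.8, 37.3 and 37.4 in CKO-OLD and 22.9, 34.7 and 24.3 in CON-OLD-iBP. Foxm1, an activator of mitosis genes, varied 7.94-fold, with 32.7, 36.3 and 15.5 CPM in YOUNG, 32.8, 26.4 and 31.2 in OLD, 79.0, 75.7 and 37.7 in CON-YOUNG, 67.4, 71.6 and 17.3 in CKO-YOUNG, 19.4, 30.8 and 28.0 in CKO-OLD and 11.5, 19.3 and 9.95 in CON-OLD-iBP. E2f2, a second activating E2F, was at 24.7, 27.0 and 5.47 CPM in YOUNG, 18.6, 4.62 and 16.8 in OLD, 3.12, 3.55 and 2.37 in CON-YOUNG, 4.51, 4.61 and 1.91 in CKO-YOUNG, 4.67, 11.4 and 5.29 in CKO-OLD and 1.72, 2.62 and 1.99 in CON-OLD-iBP. E2f2 was above 16 CPM in the 4 libraries of set 1 and below 12 CPM in the other 14, so that its pattern followed set 1 and not set 2. Mybl2, the B-Myb partner of MuvB, had the widest range of the 55 genes, 28.6-fold, from 2.05 CPM in CON-OLD-iBP 3 to 58.5 CPM in CKO-YOUNG 2.

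**Figure D3:**
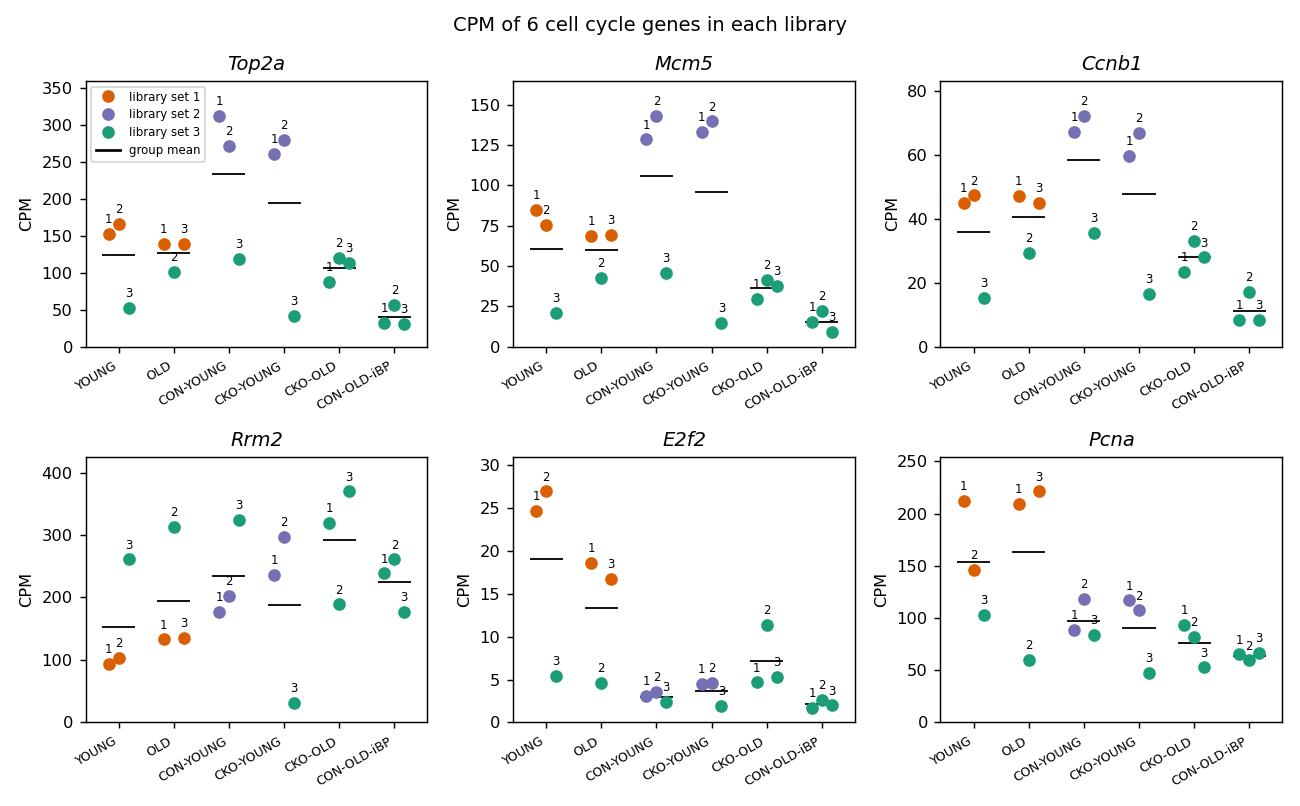
CPM (vertical axes, linear, from 0) of Top2a, Mcm5, Ccnb1, Rrm2, E2f2 and Pcna in each library, by group; points are libraries, numbered by replicate and coloured by library set, and black lines are group means. Top2a, Mcm5 and Ccnb1 share the order of the sets, while Rrm2, E2f2 and Pcna, shown because they correlated least with the rest, do not.

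Cyclin A2 (Ccna2) drives S phase and G2, and Cdk1 with B cyclins drives entry to mitosis. Ccna2 was measured at 59.0, 63.2 and 20.5 CPM in YOUNG, 51.5, 29.9 and 52.3 in OLD, 105, 101 and 38.1 in CON-YOUNG, 101, 104 and 20.2 in CKO-YOUNG, 27.6, 36.1 and 31.7 in CKO-OLD and 12.4, 18.3 and 12.5 in CON-OLD-iBP. Cdk1 was measured at 58.9, 51.3 and 24.1 CPM in YOUNG, 56.0, 49.6 and 54.9 in OLD, 59.8, 63.8 and 53.2 in CON-YOUNG, 61.6, 60.5 and 22.2 in CKO-YOUNG, 50.2, 43.9 and 44.0 in CKO-OLD and 20.4, 25.0 and 19.8 in CON-OLD-iBP. Ccna2 spanned 8.46-fold over the 18 libraries and Cdk1 3.23-fold. In both genes the 3 CON-OLD-iBP libraries, YOUNG 3 and CKO-YOUNG 3 were the lowest 5.

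Plk1 is a kinase of mitotic entry and exit, and Bub1b a part of the spindle checkpoint. Plk1 had 42.2, 33.2 and 19.7 CPM in YOUNG, 39.8, 35.2 and 38.7 in OLD, 69.8, 73.3 and 52.7 in CON-YOUNG, 55.4, 61.6 and 19.1 in CKO-YOUNG, 31.8, 30.3 and 32.9 in CKO-OLD and 13.8, 23.9 and 7.68 in CON-OLD-iBP. Bub1b had 36.6, 36.7 and 11.3 CPM in YOUNG, 35.9, 20.6 and 38.1 in OLD, 59.0, 51.6 and 21.6 in CON-YOUNG, 50.0, 51.0 and 13.7 in CKO-YOUNG, 16.5, 23.9 and 20.3 in CKO-OLD and 4.77, 11.2 and 6.24 in CON-OLD-iBP. The CON-OLD-iBP libraries lay below all OLD and CKO-OLD libraries for both. Cdc20 activates the anaphase-promoting complex, and Ube2c is one of the enzymes that supply its ubiquitin. Cdc20 had 32.0, 28.2 and 18.5 CPM in YOUNG, 34.5, 36.0 and 35.2 in OLD, 78.9, 73.8 and 46.7 in CON-YOUNG, 75.6, 78.0 and 22.0 in CKO-YOUNG, 28.0, 32.7 and 33.6 in CKO-OLD and 11.8, 22.1 and 9.99 in CON-OLD-iBP. Ube2c had 41.7, 38.9 and 18.7 CPM in YOUNG, 38.6, 28.3 and 44.9 in OLD, 49.1, 42.3 and 35.0 in CON-YOUNG, 40.8, 45.4 and 16.2 in CKO-YOUNG, 25.9, 32.1 and 27.9 in CKO-OLD and 11.0, 16.7 and 13.0 in CON-OLD-iBP. All 3 CON-YOUNG libraries were above all 3 YOUNG libraries for Cdc20, but not for Ube2c.

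The kinetochore proteins Cenpe and Cenpf join chromosomes to the spindle. Cenpe stood at 37.4, 37.9 and 17.8 CPM in YOUNG, 31.8, 30.4 and 28.6 in OLD, 61.5, 66.3 and 38.3 in CON-YOUNG, 51.8, 59.9 and 9.99 in CKO-YOUNG, 20.9, 30.2 and 28.4 in CKO-OLD and 9.78, 18.1 and 9.71 in CON-OLD-iBP. Cenpf stood at 23.9, 25.8 and 11.2 CPM in YOUNG, 25.3, 15.5 and 23.3 in OLD, 66.8, 55.1 and 20.9 in CON-YOUNG, 51.5, 48.9 and 9.96 in CKO-YOUNG, 16.5, 25.7 and 19.7 in CKO-OLD and 5.19, 12.3 and 4.30 in CON-OLD-iBP. In both, CKO-YOUNG 3 lay within the range of the CON-OLD-iBP libraries. Anln is a scaffold of the cleavage furrow, and Tpx2 activates Aurora A on the spindle. Anln stood at 51.1, 75.7 and 26.5 CPM in YOUNG, 49.9, 53.1 and 45.4 in OLD, 156, 149.6 and 63.1 in CON-YOUNG, 149.6, 175 and 36.8 in CKO-YOUNG, 41.4, 64.4 and 63.9 in CKO-OLD and 23.0, 48.0 and 15.3 in CON-OLD-iBP. Tpx2 stood at 75.0, 73.0 and 36.1 CPM in YOUNG, 62.8, 62.5 and 63.3 in OLD, 131, 132 and 80.3 in CON-YOUNG, 112, 122 and 34.9 in CKO-YOUNG, 49.8, 59.6 and 52.7 in CKO-OLD and 35.1, 51.5 and 23.6 in CON-OLD-iBP. CON-OLD-iBP 2 lay above CKO-OLD 1 for both, and above OLD 3 for Anln, while the other 2 libraries of its group were below all OLD and CKO-OLD libraries.

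Top2a untangles sister DNA before anaphase, and Mki67 codes for Ki-67, the marker used to score dividing cells. Top2a was at 153, 166 and 52.4 CPM in YOUNG, 139, 101 and 139 in OLD, 313, 272 and 119 in CON-YOUNG, 261, 280.2 and 41.8 in CKO-YOUNG, 87.8, 120.3 and 113 in CKO-OLD and 31.9, 56.8 and 31.1 in CON-OLD-iBP. Mki67 was at 185, 195 and 58.6 CPM in YOUNG, 161, 82.7 and 150.0 in OLD, 282, 254 and 115 in CON-YOUNG, 239, 247 and 29.5 in CKO-YOUNG, 79.3, 130.4 and 99.7 in CKO-OLD and 26.1, 40.1 and 30.7 in CON-OLD-iBP. Both had the 3 CON-OLD-iBP libraries below every OLD and CKO-OLD library, and OLD 2, from set 3, below OLD 1 and OLD 3.

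Over all genes tested, the median log2 fold change lay between -0.031 and 0.013 in the 7 comparisons and 2 interactions that follow, with 45.5% to 50.7% of genes positive, and the members' medians and counts of signs can be read beside these. Comparisons that share a group (OLD, YOUNG, CKO-OLD, CKO-YOUNG, CON-YOUNG or CON-OLD-iBP) share its libraries, so their values are not independent. CON-OLD-iBP against OLD asked how old control osteoblasts with iBP differ from old wild-type osteoblasts. Of the 55 genes, 54 had a negative log2 fold change, with a median of -1.46 (2.75-fold lower), against a median of 0.00131 over all genes tested. No member passed an adjusted p of 0.05 in edgeR's quasi-likelihood test (0.0241% of all genes did), but 41 had an unadjusted p under 0.05. In 48 members CON-OLD-iBP was apart, with all 3 CON-OLD-iBP libraries below all 3 OLD libraries, against 15.8% of all genes. The smallest adjusted p-values, 0.0538 by edgeR, belonged to Cenpa, the histone of centromeres (log2 fold change -2.00 ± 0.41, SE), Ccne1, the cyclin that starts S phase (-1.26 ± 0.27), and Nusap1, a spindle protein (-2.03 ± 0.44). Rrm2 was the member with a positive value, 0.22. DESeq2 called 30 members lower (6.96% of all genes) and limma-voom with quality weights 47 (19.4% of all genes). With OLD 2 left out, edgeR called 15 lower (5.17% of all genes), and with CON-OLD-iBP 2 left out it called 1 (0.38%). With OLD 1 and OLD 3, which were very alike, summed as 1 library, edgeR called 0 members and 0 of all genes. The median was then -1.37 and the smallest adjusted p of a member 0.212 by edgeR.

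By class, the median log2 fold change in this comparison was -1.84 for Top2a and Mki67, -1.59 for the mitotic kinases and checkpoint genes, -1.58 for the cyclins, -1.55 for the kinetochore genes, -1.49 for the spindle genes, -1.36 for Cdc20 and Ube2c, -1.29 for the synthesis genes, -1.15 for the transcription factors and -1.10 for the licensing genes. OLD 1 and OLD 3 belong to set 1, with Ddx3y at 0 CPM, and all CON-OLD-iBP libraries to set 3, with Ddx3y at 66.0 to 75.6 CPM. In a fit with 1 coefficient per group and library set, the difference from OLD 2 alone, which is a single library assumed to vary like the others, had a median of -1.15 and 13 members called lower (0.549% of all genes). Those 13 were Mcm3, Mcm7, Cdc6, Tk1, Ccna2, Ccne1, Cdk1, Aurkb, Melk, Ube2c, Cenpa, Nusap1 and Mki67. With a term for library set the median was -0.90 and no member was called. Macrophage markers made up 0.0516% to 0.102% of counts in CON-OLD-iBP and 0.149% to 1.14% in OLD, and all 18 had a negative log2 fold change. The 8 osteoclast markers were also negative, at 0.0176% to 0.0246% against 0.0252% to 0.222%. The summed share of chondrocyte markers was higher, at 0.803%, 0.0137% and 0.0386% of counts in CON-OLD-iBP against 0.00380% to 0.00815% in OLD, with no overlap. Single markers differed. Sox9 was at 258, 123 and 90.5 CPM in CON-OLD-iBP against 14.1 to 63.2 in OLD. In CON-OLD-iBP 2, Col2a1 was at 12.1 CPM against 12.2 to 24.2 in OLD, and Acan at 0.0734 against 0 to 0.495. Their part in the result was not tested.

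CON-OLD-iBP against CKO-OLD was the comparison of old groups in which all 6 libraries came from set 3, though the groups differ in Kdm2b genotype and in iBP together. Among the members, 54 of 55 had a negative log2 fold change, with a median of -1.13 (2.18-fold lower) against -0.01 over all genes. edgeR called no member (1.29% of all genes were called), with 30 at an unadjusted p under 0.05. In 46 members the groups did not overlap, with all CON-OLD-iBP libraries below all CKO-OLD libraries, against 16% of all genes. Ccne1 (-0.97 ± 0.27, SE, adjusted p = 0.0782 by edgeR), Tk1 (-1.75 ± 0.49, adjusted p = 0.0827) and Cdk1 (-1.08 ± 0.34, adjusted p = 0.103) had the smallest p-values. DESeq2 called 10 members lower (4% of all genes), limma-voom with quality weights 24 (7.35%), edgeR with only these 2 groups 11 (1.75%), and edgeR with a term for library set 35 (6.48%).

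With the library sets fitted apart the same libraries were compared, so the median could hardly change and is no further check, but the count of calls could. With 1 coefficient per group and library set, edgeR called 42 of the 55 genes, each lower in the iBP group, at a median of -1.13 (9.94% of all genes were called lower). The spread in this fit was drawn also from the like pairs of sets 1 and 2 in other groups. Those pairs differed by 6.22 to 39.3 times counting noise, against 29.1 to 98.8 times for pairs within CKO-OLD and CON-OLD-iBP. The part of this in the count was not tested. The 42 were 8 of 9 mitotic kinase and checkpoint genes, 8 of 10 spindle genes, 8 of 11 licensing genes, 6 of 7 cyclin genes, all 3 kinetochore genes, 3 of 6 synthesis genes, 2 of 5 transcription factors, and all 4 genes of the classes of Cdc20 and Top2a. A fit on the 10 libraries of set 3 alone, added after the data were seen, called 13 (1.8% of all genes). With CON-OLD-iBP 2 left out of the fit over all libraries, edgeR called 2 (1.58%). E2f8, a repressor of S phase genes, was the member with a positive value, 0.26. The 13 osteoblast markers all had negative log2 fold changes in this comparison (median -0.71, none called) and summed to 1.70% to 3.40% of counts in CON-OLD-iBP and 3.31% to 4.78% in CKO-OLD. The 18 macrophage markers were also all negative, at 0.0516% to 0.102% against 0.146% to 0.634%. Their part in the result was not tested.

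CKO-OLD against OLD addressed loss of the Kdm2b CxxC domain in old osteoblasts. The median log2 fold change of the 55 genes was -0.34, with 52 negative, and no member was called by edgeR (0.00604% of all genes were), with 1 at an unadjusted p under 0.05. DESeq2 called none. Limma-voom with quality weights called 21, a share near the 41.1% of all genes called in either direction. The directions differed: 20 of the 21 members were lower and 1 higher, while of all 16566 genes 3467 were called lower and 3342 higher. There were 14 members that had all CKO-OLD libraries below all OLD libraries, against 8.47% of all genes. Pcna (-1.11 ± 0.43, SE, adjusted p = 0.56 by edgeR), Cenpa (-0.73 ± 0.39, adjusted p = 0.646) and Nusap1 (-0.75 ± 0.43, adjusted p = 0.67) had the smallest p-values. Against OLD 2 alone, the OLD library of set 3, the median was -0.04 and 32 of 55 were negative, and with a term for library set it was 0.24. Pcna turned from -1.11 to 0.34 when set against OLD 2 alone. All 18 macrophage markers had a negative log2 fold change, and their part in the result was not tested.

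In young osteoblasts, CKO-YOUNG against CON-YOUNG gave a median log2 fold change of -0.22, with 48 of 55 negative. edgeR called no member (0.127% of all genes), none (0) had an unadjusted p under 0.05, and DESeq2 and limma-voom called 0. With the replicate number as a block, edgeR called 0 members and 0 of all genes. No member had all CKO-YOUNG libraries below all CON-YOUNG libraries (3.19% of all genes did). Plk1 (-0.53 ± 0.41, SE), Cenpe (-0.45 ± 0.48) and Kif23 (-0.40 ± 0.43) had the smallest p-values, all with an adjusted p of 1 by edgeR. The difference lay in the third pair of libraries. Within set 2, replicates 1 and 2, the median was -0.02, with 34 of 55 negative and none called. Within set 3, CKO-YOUNG 3 against CON-YOUNG 3, it was -1.11, with 54 of 55 negative and 19 called lower by edgeR (3.33% of all genes), which is a comparison of 2 libraries. With CKO-YOUNG 3 left out the median was 0.21.

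The 19 genes lower in CKO-YOUNG 3 than in CON-YOUNG 3 included 8 of the 11 licensing genes, Top2a and Mki67. Rrm2 showed the largest of these differences, 31.2 CPM in CKO-YOUNG 3 and 324 CPM in CON-YOUNG 3 (log2 fold change -3.38, adjusted p = 0.00352 by edgeR). CKO-YOUNG 3 is also the library with both Xist and Ddx3y, and its part in the result was not tested.

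OLD against YOUNG addressed age in wild-type osteoblasts. The median log2 fold change was 0.08, with 37 of 55 positive, and edgeR called no member and no gene at all (0%). No member had an unadjusted p under 0.05, and neither DESeq2 nor limma-voom called any. Ccne1 (0.47 ± 0.26, SE) and Cdc20 (0.43 ± 0.39) were the 2 members with all OLD libraries above all YOUNG libraries, against 5.73% of all genes, and Ccne2 (-0.91 ± 0.72) was the other of the 3 smallest p-values, all with an adjusted p of 1 by edgeR. The 2 sets gave different values. Within set 1 the median was -0.11 with 39 of 55 negative and none called. Between OLD 2 and YOUNG 3 of set 3 it was 0.84, with 53 of 55 positive and Cdc6 called higher (log2 fold change 2.41, adjusted p = 0.0486 by edgeR; 0.0181% of all genes). With YOUNG 3 left out the pooled median was -0.24. YOUNG 3 was also the library with the largest share of chondrocyte markers, 1.33% of counts, against 0.00380% to 0.00815% in the 3 OLD libraries, and its part in the result was not tested.

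CKO-OLD against CKO-YOUNG addressed age in the knockout. The median log2 fold change was -0.79, with 53 of 55 negative, and edgeR called no member (0.7% of all genes), with 10 at an unadjusted p under 0.05. No member had all CKO-OLD libraries below all CKO-YOUNG libraries (15.2% of all genes did). Mybl2 (-2.34 ± 0.82, SE, adjusted p = 0.114 by edgeR), Mcm7 (-1.12 ± 0.40, adjusted p = 0.118) and Uhrf1 (-1.67 ± 0.66, adjusted p = 0.143) had the smallest p-values. DESeq2 called 1 member lower (5.43% of all genes) and limma-voom with quality weights 51 (25% of all genes). Without CKO-YOUNG 3, edgeR called 22 lower (8% of all genes). Within set 3 the sign turned. Against CKO-YOUNG 3 alone, a single library, the median was 0.84, with 54 of 55 positive and 15 called higher (2.7% of all genes), among them Top2a, Mki67 and 6 licensing genes. Macrophage markers made up 0.146% to 0.634% of counts in CKO-OLD against 0.0145% to 0.106% in CKO-YOUNG, and pericyte and smooth muscle markers 0.148% to 0.203% against 0.588% to 0.680%. Osteoblast markers had mixed directions, and their summed shares overlapped, at 3.31% to 4.78% of counts in CKO-OLD and 4.17% to 4.84% in CKO-YOUNG. Spp1 (2.57, adjusted p = 0.0253) and Bglap (8.53, adjusted p = 0.0389, with CKO-YOUNG at 0 to 0.306 CPM) were called higher in CKO-OLD by edgeR. Col1a1, Col1a2 and Sparc went the other way, with all CKO-OLD libraries below all CKO-YOUNG libraries. Their part in the result was not tested.

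CON-YOUNG against YOUNG compared the 2 young control groups, of which only the former carries Ocncre and Ai14. The median log2 fold change was 0.77, with 51 of 55 positive. edgeR called 1 member (5.55% of all genes), and it was lower: E2f2 fell 6.32-fold, from 19.0 ± 11.8 to 3.01 ± 0.60 CPM (SD, n = 3; log2 fold change -2.66 ± 0.62, SE, adjusted p = 0.0234 by edgeR). There were 8 members that had all CON-YOUNG libraries above all YOUNG libraries, against 10.1% of all genes, a share not far from that of the members. The 8 were Foxm1, Plk1, Aurka, Cdc20, Cenpe, Kif20a, Kif2c and Tpx2. The call of E2f2 was lost with the replicate number as a block (adjusted p = 0.15), with only these 2 groups (adjusted p = 0.123), with a term for library set (log2 fold change -1.55, adjusted p = 0.287), within set 3 (-1.21, adjusted p = 0.356), and without YOUNG 1, YOUNG 2, CON-YOUNG 1 or CON-YOUNG 2 in turn (adjusted p = 0.0825 to 0.114). DESeq2 called 2 members (12.5% of all genes) and limma-voom 36, 35 of them higher (45.4% of all genes called in either direction). With CON-YOUNG 3 left out, edgeR called 3 (17.1% of all genes). Between CON-YOUNG 3 and YOUNG 3 of set 3 the median was 1.16, with 53 of 55 positive and Cdc6 called higher (1 member; 0.0423% of all genes), and E2f2 stood at 2.37 and 5.47 CPM. Of the 18 macrophage markers, 17 were called lower in CON-YOUNG, and their part in the result was not tested.

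edgeR called no member in either interaction. The knockout difference in old less that in young had a median of -0.11, with no gene of any kind called by edgeR (0%) and no member at an unadjusted p under 0.05 in that test. Limma-voom called 2 members lower (8.03% of all genes) and DESeq2 none. Pcna (-1.01 ± 0.60, SE), E2f2 (-1.19 ± 0.83) and Cenpa (-0.65 ± 0.56) had the smallest p-values (adjusted p = 0.963 for Pcna and E2f2 and 0.982 for Cenpa by edgeR). The age difference in the knockout less that in wild type had a median of -0.90, with 53 of 55 negative, no gene called by edgeR (0%) and 2 members at an unadjusted p under 0.05 in that test. DESeq2 called no member and limma-voom 35 lower (15.5% of all genes). Cdc20 (-1.32 ± 0.56, SE), Kif20a (-1.24 ± 0.53) and Mybl2 (-2.35 ± 1.13) led it, with adjusted p of 0.38, 0.384 and 0.428 by edgeR. With a term for library set the medians of the 2 interactions were 0.69 and 0.25, each on the other side of 0.

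**Figure D4:**
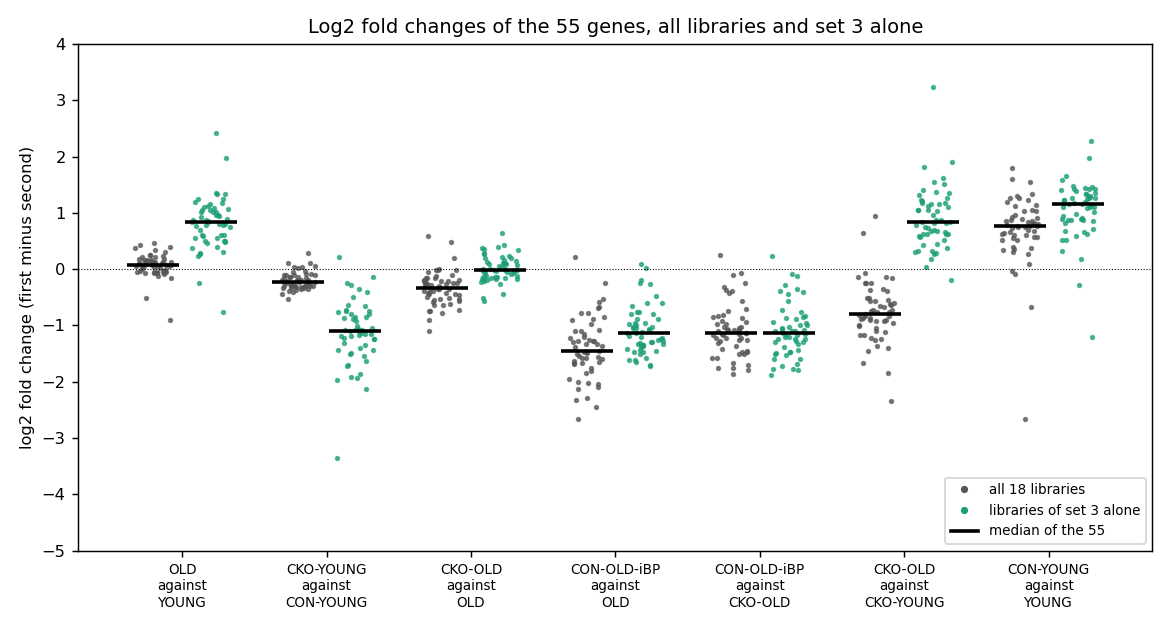
Log2 fold change, first group minus second (vertical axis), of each of the 55 genes in 7 comparisons, from the fit over all 18 libraries (grey) and from the 10 libraries of set 3 alone (green); each point is a gene and the black bar the median. The medians of the 2 comparisons of CON-OLD-iBP lie between -1.46 and -1.13 in both fits, while that of CKO-OLD against CKO-YOUNG is -0.79 in one and 0.84 in the other. For CON-OLD-iBP against CKO-OLD both fits compare the same libraries, all of set 3. From OLD, YOUNG, CON-YOUNG and CKO-YOUNG the fit on set 3 keeps a single library each.

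Other genes of the same machinery followed the members. Of 35 other S phase genes, 35 had a negative log2 fold change in CON-OLD-iBP against OLD (median -1.17) and 33 against CKO-OLD (median -0.91). Of 42 other mitosis genes, 42 were negative in both (medians -1.38 and -1.05). edgeR called none of these 77 genes in either comparison. Gmnn, the inhibitor of Cdt1, had the smallest p of the S phase list against OLD (-2.34, adjusted p = 0.0538 by edgeR) and Cdca3, a mitotic entry factor, that of the mitosis list (-1.70, adjusted p = 0.055). In CON-YOUNG against YOUNG 33 of 35 and 40 of 42 were positive, and Hjurp, the chaperone of Cenpa, was called higher (1.23, adjusted p = 0.0257 by edgeR). Hjurp was at 144 to 171 CPM in the 4 libraries of set 2 and at 40.4 to 86.2 CPM in the other 14.

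Genes that act before S phase had mixed signs. Of the 14 G1 cyclins, their kinases and the retinoblastoma family, 6 were positive and 8 negative in both comparisons of CON-OLD-iBP. Ccnd3, cyclin D3, fell against CKO-OLD, with 76.9, 99.0 and 79.4 CPM in CON-OLD-iBP and 163, 147 and 158 CPM in CKO-OLD (log2 fold change -0.88, adjusted p = 0.0209 by edgeR). Its call was lost without any 1 of the CKO-OLD libraries, CON-OLD-iBP 1 or CON-OLD-iBP 3 (adjusted p = 0.0689 to 0.105). Rbl2, the p130 subunit of DREAM, was at 17.7, 27.2 and 23.1 CPM in CON-OLD-iBP and 50.9, 48.0 and 47.9 CPM in OLD (-1.11, adjusted p = 0.055 by edgeR). Ccnd1, cyclin D1, was between 178 and 279.5 CPM in CKO-YOUNG 3 and set 2, and between 732 and 1677 CPM elsewhere. None of the 8 MuvB and DREAM subunits was called in any of the 7 comparisons, and their median in CON-OLD-iBP against OLD was -0.35.

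Among 7 inhibitors of cyclin-dependent kinases, Cdkn2d (p19, an inhibitor of Cdk4 and Cdk6) was called in both comparisons of CON-OLD-iBP. It fell from 25.1, 15.7 and 27.7 CPM in OLD to 5.27, 7.17 and 7.34 CPM in CON-OLD-iBP (log2 fold change -1.79, adjusted p = 0.0459 by edgeR). That call was lost in 10 of 16 alternatives, among them a term for library set (-1.16, adjusted p = 0.16), DESeq2 size factors (-1.76, adjusted p = 0.0539) and leaving out OLD 1, OLD 3, CON-OLD-iBP 1 or CON-OLD-iBP 3 (adjusted p = 0.136 to 0.2201). It was also lower than in CKO-OLD, at 24.0, 20.9 and 19.6 CPM (-1.71, adjusted p = 0.0209), a call lost without the libraries named for Ccnd3 (adjusted p = 0.0622 to 0.105). Cdkn1c (p57) rose in CKO-YOUNG against CON-YOUNG, with 7.03, 5.72 and 24.3 CPM against 1.30, 1.08 and 1.70 CPM (3.18, adjusted p = 0.0463 by edgeR). In CKO-OLD it was at 9.67, 7.43 and 7.59 CPM against 1.56, 2.81 and 1.18 CPM in OLD (2.15, adjusted p = 0.306). Cdkn1a (p21) fell in CON-YOUNG against YOUNG, with 150.0, 189 and 289.7 CPM against 597, 483 and 558 CPM (-1.38, adjusted p = 0.0162 by edgeR). With the replicate number as a block edgeR called no gene in either of these 2 comparisons of young groups, so the calls of Cdkn1c, Cdkn1a, Hjurp and the macrophage markers were lost. Over all alternatives run, the call was lost in 8 of 16 for Cdkn1c, 8 of 15 for Cdkn1a and 9 of 15 for Hjurp. Cdkn1c lost it without any 1 of the CON-YOUNG libraries, CKO-YOUNG 1 or CKO-YOUNG 3. Cdkn1a lost it without CON-YOUNG 1, CON-YOUNG 2 or YOUNG 1, and Hjurp without those or YOUNG 2. With a term for library set, Cdkn1a was at -0.71 and Hjurp at 0.40. Cdkn2a, which codes for p16 and p19ARF and is known for its rise in senescent cells, was at 4.96 to 8.18 CPM in the 4 libraries of set 2 and at 77.5 to 205 CPM in the other 14. The libraries with the highest level of the 55 genes were the ones with the lowest Cdkn2a.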

How the data were processed

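RNA was sequenced from 18 samples in 6 groups of 3, and the 8 CUT&Tag samples of the series were not analysed here. The authors deposited 1 table of raw counts per gene symbol, whole numbers with no normalization. FastQC, Trim Galore, HISAT2 and the build mm39 are named, with no versions, in the submitters' processing notes, and the counting program is not given in the sources used here. Reads from overlapping genes or near-identical copies could be split by that counting.

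From the counts, edgeR 4.0.16 (R 4.3.3) kept 16566 genes with filterByExpr (minimum count 10, minimum total 15) and fitted all 18 libraries with TMM scaling, 1 coefficient per group and 12 residual degrees of freedom, followed by a robust quasi-likelihood F test, two-sided, with Benjamini-Hochberg adjustment over all genes tested and a threshold of 0.05. The biological coefficient of variation was 51.9%. Each SE of a log2 fold change is an approximation, its absolute value divided by the square root of the F statistic. Mean log2 CPM used a prior count of 2. DESeq2 1.42.0, limma 3.58.1 (voom with quality weights), other scalings and filters, the groups compared alone, a replicate block, a term for library set, fits within a set and leaving out each library were alternatives. Figures were drawn with matplotlib 3.10.9 in Python 3.11.15. The fit was also run on simulated counts with planted changes, which held no library sets and so cannot show how the sets affect the calls.

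Groups came from the labels. Library sets were made from the data (Malat1 share) and are not a batch that the labels name. Replicate numbers paired CKO-YOUNG with CON-YOUNG (correlations of deviations from the group means 0.193, 0.237 and 0.305) and CON-YOUNG with YOUNG (0.146, 0.245 and 0.310) by a rule that asks for over 0.1 in every pair, and no other comparison. The pairing comes from the data, since no label says what a number marks. In YOUNG, CON-YOUNG and CKO-YOUNG alike, replicate 3 was the library of set 3, so this pairing cannot be told apart from library set. OLD 1 and OLD 3 were the most alike replicates, with a spread 6.22 times counting noise against 15.5 to 187 times in other pairs, and were kept as 2 libraries. A fit with these 2 summed was a further alternative for the contrasts that use OLD.

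In each comparison the text names the members called, up to 8, or the 3 with the smallest p-values where none was called. Members whose values are given in every library were the 2 of highest mean CPM in each class, plus Pcna and E2f2, which were added after their values were seen. Members and lists were chosen with earlier results of these data known.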

Additional observations from a re-analysis of the deposited data

How the results depend on the processing

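Each of the 9 contrasts was recomputed under the 15 to 21 alternatives that apply to it; fits within a library set were not run for the interactions. Counts of members called kept within 1.5 times in 117 recomputed values and moved in 35. In every contrast but CON-YOUNG against YOUNG the main count was 0, so that only another 0 was scored as kept. For CON-YOUNG against YOUNG, with 1 member called, 4 of 15 were kept. Medians moved by less than the replicate SD of the members' mean level in 137 and by more in 15. That SD includes the difference between library sets in groups that span them, so the 137 do not measure stability. For CKO-YOUNG against CON-YOUNG all 16 were within it, at medians from -1.11 to 0.21. Scaling by DESeq2 size factors and dropping the filter moved no count. Where a member was called, the share of all genes called in either direction was 16.4% to 51.5% with limma-voom, 8.58% to 12.5% with DESeq2, 0.0543% to 18.7% within set 3, 0.401% to 3.94% with set 3 alone, 12.3% with set as a term, 0.198% to 4.44% with only the groups compared, 4.24% with the block and 0.69% to 17.1% with a library left out. With limma-voom the counts were 21 for CKO-OLD against OLD, 47 and 24 for CON-OLD-iBP against OLD and CKO-OLD, 51 for CKO-OLD against CKO-YOUNG, 36 for CON-YOUNG against YOUNG, and 2 and 35 for the knockout and age interactions. With DESeq2 they were 30, 10, 1 and 2 for CON-OLD-iBP against OLD and CKO-OLD, CKO-OLD against CKO-YOUNG and CON-YOUNG against YOUNG. Within set 3 they were 1 for OLD against YOUNG, 19 for CKO-YOUNG against CON-YOUNG, 13 and 42 for CON-OLD-iBP against OLD and CKO-OLD, and 15, all higher, for CKO-OLD against CKO-YOUNG. With set 3 alone (added after seeing the data) they were 13 for CON-OLD-iBP against CKO-OLD, 1 for CKO-OLD against CKO-YOUNG and 0 for CON-YOUNG against YOUNG. With library set as a term they were 35 for CON-OLD-iBP against CKO-OLD and 0 for CON-YOUNG against YOUNG. With only the groups compared they were 1, 11 and 0 for CON-OLD-iBP against OLD, against CKO-OLD and CON-YOUNG against YOUNG. With the replicate block they were 15 for CON-OLD-iBP against CKO-OLD, where the libraries share only a number, and 0 for CON-YOUNG against YOUNG; the block changed no other count.

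Leaving out each library in turn gave 0 to 15 calls for CON-OLD-iBP against OLD (15 without OLD 2), 0 to 2 against CKO-OLD, 0 to 22 for CKO-OLD against CKO-YOUNG (22 without CKO-YOUNG 3), 0 to 3 for CON-YOUNG against YOUNG, and 0 in the other contrasts. Without CON-OLD-iBP 2 the medians were -1.79 and -1.44. With a term for library set, medians were -0.90 for CON-OLD-iBP against OLD, 0.24 for CKO-OLD against OLD and 0.43 for CKO-OLD against CKO-YOUNG. With set 3 alone the interaction medians were 1.13 and 0.04.

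Signs of single genes turned under fits that account for library set, and the cause was not tested. With set as a term, CKO-OLD against OLD gave Cenpa 0.057 and Nusap1 0.087, CKO-OLD against CKO-YOUNG gave Mybl2 0.38 and Uhrf1 0.15, the knockout interaction gave Pcna 0.14, E2f2 0.52 and Cenpa 0.19, and the age interaction gave Mybl2 0.17. Within set 3, Ccne2 was 0.23 for OLD against YOUNG, Pcna 0.34 for CKO-OLD against OLD, and Mybl2 1.03, Mcm7 0.29 and Uhrf1 0.37 for CKO-OLD against CKO-YOUNG. With set 3 alone these were 0.23, 0.36, 1.03, 0.29 and 0.37, and the interactions gave Pcna 1.16, E2f2 0.93, Cenpa 0.34 and Mybl2 0.013. Cenpe was -0.84 to 0.012 for CKO-YOUNG against CON-YOUNG with each library left out, the highest without CKO-YOUNG 3. The spread between libraries rather than counting depth limits these results. Where a fit leaves 1 library in a group, that library is assumed to vary like the others.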
